A study of Zea mays with 6 samples.

Results

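Nitrate reduction and the synthesis of glutamine and asparagine were followed in maize (Zea mays) seedlings through 9 genes, of 44146 genes listed in each library. The genes were taken by identifier and comprise 2 nitrate reductases, 6 glutamine synthetases, of which Zm00001d026501 is the plastid form, and the asparagine synthetase asn4. All 9 were found. One genotype was a knockout of the β subunit (Gβ) of a heterotrimeric G protein, a signalling complex at the cell surface (genotype GBetaKO, KO1 in the titles), and it was set against the wild type (WT). Both were untreated, grown under normal conditions and harvested at the 3-leaf stage with the roots removed, in 3 libraries per genotype described as biological replicates. Only KO1 is named in the titles, and effects of Gβ loss and of anything else particular to KO1 cannot be told apart. The sources used here do not state how many plants entered a library, the kind of mutation, or the time of harvest. The p-values therefore describe the spread between these libraries.

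As background, nitrate reductase reduces nitrate to nitrite in the cytosol, and nitrite is reduced further to ammonium in the plastid. Glutamine synthetase joins ammonium to glutamate to give glutamine. In leaves the plastid form takes up ammonium from nitrate reduction and from photorespiration, while cytosolic forms, encoded by a small gene family in maize, are linked to moving nitrogen between organs, for example out of ageing leaves. Asparagine synthetase passes the amide group of glutamine to aspartate, and asparagine is a nitrogen-rich compound for transport and storage. The identifiers used here mark only Zm00001d026501 by compartment. The other 5 glutamine synthetases are therefore described by identifier and are not assigned to assimilation or remobilization. Members of such a family can share reads, which these files cannot separate.

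Levels are FPKM, fragments per kilobase of gene scaled by a library factor, as the authors deposited them. The whole reads worked back from these values numbered 14757980 to 17666047 per library. An earlier look at these data found that GBetaKO replicate 2 and WT replicate 3 stood apart from the other libraries of their genotype, and in a fit of library weights they had the lowest, 0.265 and 0.161 against 0.987 to 5.20. Results are also given without them where that matters. The files pair no identifier with a name, and the reference table matched 0 of them, so the targeted Gβ gene, leaf markers and further genes of the pathway were not analysed here.

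The glutamine synthetase genes moved in opposite directions. In GBetaKO shoots the plastid gene was at 0.241 times its WT level, 3 of the other 5 glutamine synthetase genes rose, and asn4 rose. Both nitrate reductases were highest in 1 library, GBetaKO replicate 2. The weaker one, Zm00001d018206, lay above every WT library in the other GBetaKO libraries too, at few reads. Testing required 1 FPKM or more in at least 3 libraries, which 8 of the 9 genes met, and these 8 reached 1 FPKM in all 6 libraries. Of these 8 genes 5 passed the test (limma on log2(FPKM + 1), Benjamini-Hochberg adjusted p below 0.05 over all 23232 tested genes), against 31.2% of all tested genes. Of the 8 genes, 4 passed and rose in GBetaKO, as did 15.2% of all tested genes, and 1 passed and fell, as did 16.0%. The 3 GBetaKO libraries lay entirely above or below the 3 WT libraries in 6 of the 8 genes, against 49.4% of all tested genes. The median log2 fold change was 1.04 over the 8 genes and 0.02 over all tested genes. In whole shoots, fewer cells of a type and less RNA per cell cannot be told apart.

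**Figure D1:**
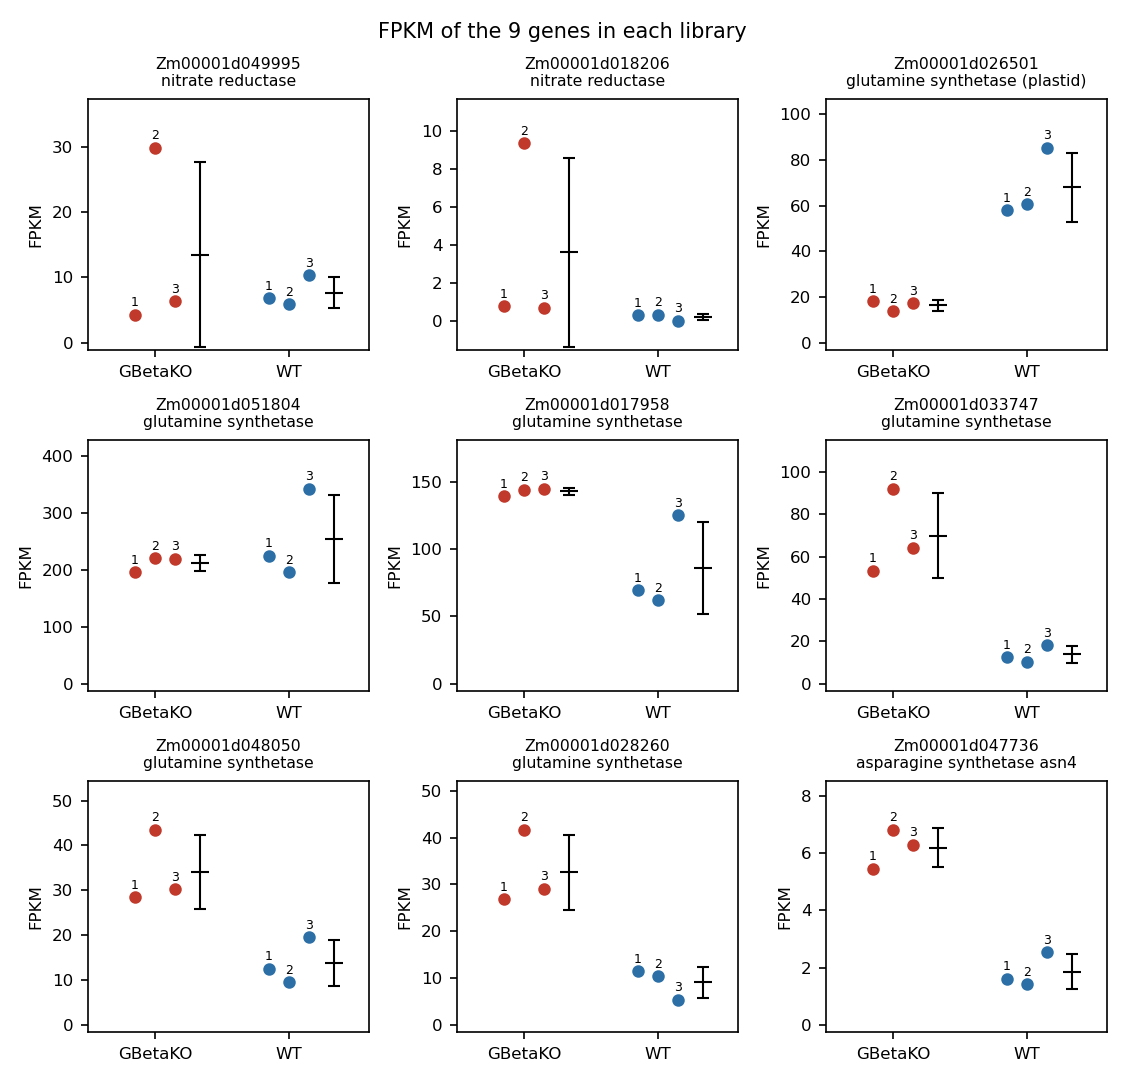
FPKM of each gene (vertical axes, linear, different ranges) in the 3 GBetaKO and 3 WT libraries. Points are libraries numbered by replicate, and the black mark and bar are the mean ± SD (n = 3). The plastid glutamine synthetase Zm00001d026501 lies at 13.7 to 18.2 FPKM in GBetaKO and at 58.1 to 85.5 FPKM in WT, and both nitrate reductases are highest in GBetaKO replicate 2.

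The plastid glutamine synthetase Zm00001d026501 had 18.2, 13.7 and 17.3 FPKM in GBetaKO replicates 1, 2 and 3, against 58.1, 60.8 and 85.5 FPKM in WT replicates 1, 2 and 3. Every GBetaKO library was thus far below every WT library. The means were 16.4 ± 2.35 FPKM in GBetaKO and 68.1 ± 15.1 FPKM in WT (SD, n = 3 each). The log2 fold change was -1.98 ± 0.21 (SE, limma adjusted p = 0.0013), with a 95% interval of -2.48 to -1.47. Only 3.44% of all tested genes had a lower log2 fold change. The values rest on 1278 to 2145 reads per GBetaKO library and 4908 to 6909 reads per WT library, so counting error was small beside the spread between libraries. Without GBetaKO replicate 2 and WT replicate 3 the log2 fold change was -1.69.

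Of the other glutamine synthetases, Zm00001d033747 rose most. It had 53.4, 92.2 and 64.3 FPKM in GBetaKO replicates 1, 2 and 3, against 12.6, 10.4 and 18.3 FPKM in WT replicates 1, 2 and 3. The lowest GBetaKO library was well above the highest WT library, and GBetaKO replicate 2 stood highest. The log2 fold change was 2.26 ± 0.28 (SE, limma adjusted p = 0.0023), with a 95% interval of 1.58 to 2.95, and 3.38% of all tested genes had a higher one. Mean FPKM was 5.08 times as high in GBetaKO as in WT.

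Zm00001d028260 also rose. It had 26.8, 41.7 and 29.1 FPKM in GBetaKO replicates 1, 2 and 3, against 11.4, 10.3 and 5.31 FPKM in WT replicates 1, 2 and 3. The groups did not overlap, and here WT replicate 3 was the lowest library, whereas it was the highest WT library for the other 5 glutamine synthetases. The log2 fold change was 1.78 ± 0.31 (SE, limma adjusted p = 0.0077), and 1.29 without GBetaKO replicate 2 and WT replicate 3.

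Zm00001d048050 had 28.5, 43.5 and 30.3 FPKM in GBetaKO replicates 1, 2 and 3, against 12.5, 9.43 and 19.5 FPKM in WT replicates 1, 2 and 3. The groups did not overlap, with the highest WT library, replicate 3, closest to the GBetaKO libraries. Its rise measured 1.28 ± 0.30 on the log2 scale (SE, limma adjusted p = 0.020). The call was lost when any of 4 libraries was left out: the adjusted p was 0.071 without WT replicate 1, 0.057 without WT replicate 2, 0.051 without GBetaKO replicate 2 and 0.059 without GBetaKO replicate 3. It was 0.0053 without WT replicate 3 and 0.046 without GBetaKO replicate 1, and the log2 fold change lay between 1.05 and 1.54 in these fits.

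The remaining pair, Zm00001d051804 and Zm00001d017958, had the highest FPKM of the glutamine synthetases in every library and did not pass the test. Zm00001d017958 had 140, 144 and 145 FPKM in GBetaKO replicates 1, 2 and 3, against 69.7, 62.3 and 125 FPKM in WT replicates 1, 2 and 3. All GBetaKO libraries were nearly equal and lay above all WT libraries, but WT replicate 3 came close to them. Its log2 fold change was 0.80 ± 0.29 (SE, limma adjusted p = 0.085). Without WT replicate 3 it was 1.10 with a limma adjusted p of 0.0045. With any other single library left out the limma adjusted p was 0.15 to 0.23, and with replicate number as a block it was 0.15. Scaling every library to the same summed FPKM gave a log2 fold change of 1.06 with an adjusted p of 0.013. On that scale, transcripts in parts of a fixed sum (TPM), which raised the median log2 fold change of all tested genes to 0.24, the gene had 263, 221 and 252 TPM in GBetaKO replicates 1, 2 and 3, against 105, 104 and 146 TPM in WT replicates 1, 2 and 3. The spread of its log2 values among the GBetaKO libraries, an SD of 0.03, was lower than that of all but 1.64% of the tested genes, against an SD of 0.53 among the WT libraries.

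Zm00001d051804, the gene of highest FPKM among the 9, had 196, 221 and 220 FPKM in GBetaKO replicates 1, 2 and 3, against 225, 196 and 343 FPKM in WT replicates 1, 2 and 3. The groups overlapped, and by FPKM WT replicate 3 was the only library far from the rest. In TPM that library had 400, against 328 to 382 in the others. The log2 fold change was -0.22 ± 0.28 (SE, limma adjusted p = 0.58). Its 95% interval of -0.88 to 0.44 leaves room for changes in either direction, so equal levels are not shown. The sign turned with the scaling, from -0.22 to 0.04 at equal summed FPKM, where the median of all tested genes was 0.24, and to 0.14 after quantile normalization, and it was 0.02 without WT replicate 3.

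**Figure D2:**
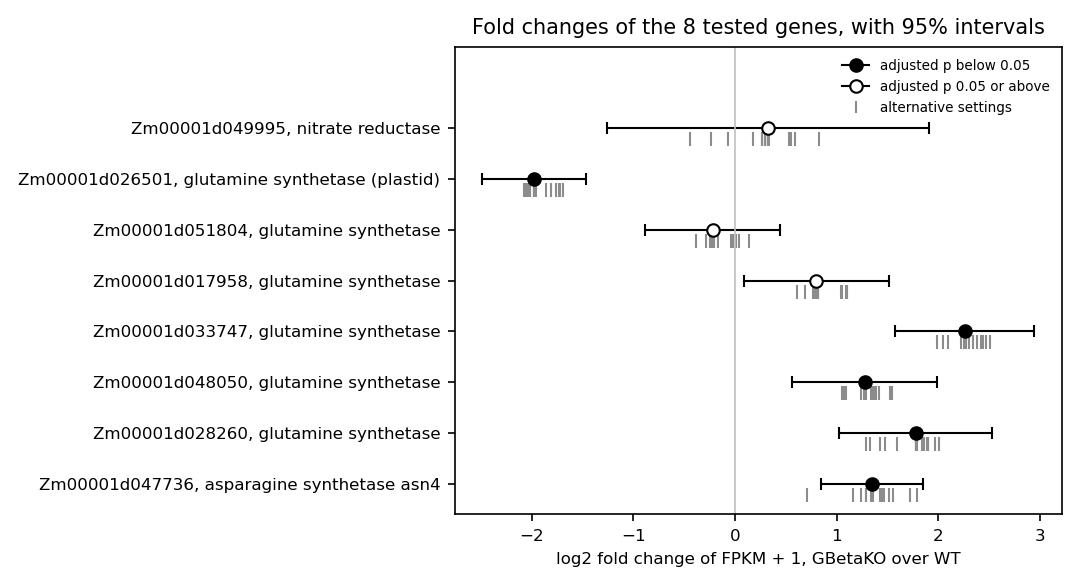
Log2 fold change of FPKM + 1 in GBetaKO over WT (horizontal axis) for the 8 tested genes, with 95% intervals from limma. Filled points have an adjusted p below 0.05, and grey ticks give the fold change under other settings. The plastid glutamine synthetase lies at -1.98, and 3 other glutamine synthetases and asn4 lie between 1.28 and 2.26.

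Within a library, shares of the summed glutamine synthetase FPKM do not depend on the scaling between libraries. The plastid gene made up 3.93%, 2.47% and 3.42% of this sum in GBetaKO replicates 1, 2 and 3, against 14.9%, 17.4% and 14.3% in WT replicates 1, 2 and 3. The groups were far apart, and the means differed by -12.3 percentage points (3.27% ± 0.741 in GBetaKO and 15.6% ± 1.64 in WT, SD, n = 3 each, no test was made on sums over the genes). In order of FPKM, which is per length, the plastid gene was the last of the 6 in all 3 GBetaKO libraries and the third in all 3 WT libraries. The length worked back for the plastid gene, 5988 bases, is well above the 1494 to 1961 bases of the other 5. The same number of reads therefore gives it a lower FPKM than theirs, which touches every order of levels that includes it. Counted in reads it held 10.5% ± 2.19 of the glutamine synthetase reads in GBetaKO and 39.6% ± 3.02 in WT (SD, n = 3 each).

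The share of Zm00001d051804 was also lower, at 42.4%, 39.7% and 43.5% in GBetaKO replicates 1, 2 and 3, against 57.8%, 56.1% and 57.5% in WT replicates 1, 2 and 3. Its FPKM did not pass the test, while those of 3 other members rose. The share of Zm00001d017958 was 30.2%, 25.9% and 28.7% in GBetaKO replicates 1, 2 and 3, against 17.9%, 17.8% and 21.0% in WT replicates 1, 2 and 3. The ratio of Zm00001d051804 to Zm00001d017958 was accordingly 1.41 to 1.53 in GBetaKO and 2.74 to 3.23 in WT, without overlap. Here WT replicate 3 lay with the other WT libraries, although its FPKM of both genes was higher than theirs.

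Together, Zm00001d033747, Zm00001d048050 and Zm00001d028260 took 23.5%, 31.9% and 24.5% of the sum in GBetaKO replicates 1, 2 and 3, against 9.39%, 8.64% and 7.22% in WT replicates 1, 2 and 3. The ratio of Zm00001d033747 to the plastid gene was 2.93, 6.71 and 3.71 in GBetaKO replicates 1, 2 and 3, against 0.218, 0.171 and 0.214 in WT replicates 1, 2 and 3. By FPKM the plastid gene was thus the lower of the 2 in every GBetaKO library and the higher in every WT library. In reads, which are not divided by length, the plastid gene was still the higher in GBetaKO replicate 1, with 2145 reads against 1850 for Zm00001d033747, and the lower in GBetaKO replicates 2 and 3. The summed FPKM of all 6 genes overlapped between genotypes, with 463, 556 and 506 in GBetaKO replicates 1, 2 and 3, against 389, 349 and 597 in WT replicates 1, 2 and 3. As a share of the summed FPKM of all genes in a library the groups did not overlap, with 0.0871%, 0.0855% and 0.0879% in GBetaKO replicates 1, 2 and 3, against 0.0587%, 0.0584% and 0.0695% in WT replicates 1, 2 and 3. The summed FPKM of all genes was itself 531320 to 650853 in GBetaKO and 597454 to 857831 in WT. Scaling by it raised the median log2 fold change of all tested genes from 0.02 to 0.24.

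**Figure D3:**
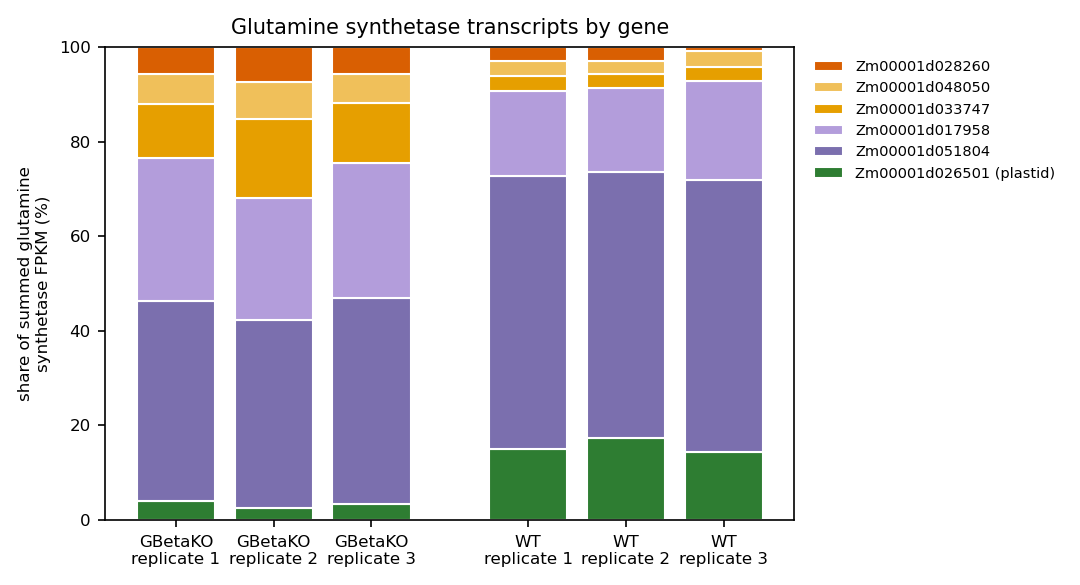
Share of the summed glutamine synthetase FPKM (percent, vertical axis) held by each of the 6 genes in each library, GBetaKO on the left and WT on the right. The plastid gene (green) holds 2.47% to 3.93% in GBetaKO libraries and 14.3% to 17.4% in WT libraries.

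Transcripts for the first step of the pathway were highest in 1 library, GBetaKO replicate 2. The nitrate reductase Zm00001d049995 had 4.28, 29.9 and 6.36 FPKM in GBetaKO replicates 1, 2 and 3, against 6.84, 5.89 and 10.3 FPKM in WT replicates 1, 2 and 3. A single library, GBetaKO replicate 2, stood far above the other 5, which overlapped. The log2 fold change was 0.32 ± 0.66 (SE, limma adjusted p = 0.74), and it was -0.45 without GBetaKO replicate 2 (limma adjusted p = 0.29). Its spread among the GBetaKO libraries, an SD of 1.36 on the log2 scale, exceeded that of 99.7% of the tested genes.

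The nitrate reductase Zm00001d018206 was far weaker and was not tested. It had 0.788, 9.36 and 0.700 FPKM in GBetaKO replicates 1, 2 and 3, from 31, 290 and 25 reads. In WT replicates 1 and 2 it had 0.284 and 0.326 FPKM, from 8 and 10 reads. It was listed at 0 in WT replicate 3, where 3 reads, about the 95% upper limit for a count of 0, would be 0.111 FPKM. All GBetaKO libraries lay above all WT libraries, and GBetaKO replicate 2 again stood far above the rest. Summed over libraries and scaled, its reads were 15.5 times as many in GBetaKO as in WT (346 against 18 reads, 95% exact binomial interval 9.69 to 26.5). Without GBetaKO replicate 2 the ratio was 3.55 (56 against 18 reads, interval 2.06 to 6.42). These intervals and the limit at 0 cover counting error only. In a fit without the filter its log2 fold change was 1.40 ± 0.71 (SE, limma adjusted p = 0.22), where 22.9% of the 31946 genes above 0 in any library passed.

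asn4 (Zm00001d047736) rose. It had 5.47, 6.83 and 6.31 FPKM in GBetaKO replicates 1, 2 and 3, against 1.61, 1.42 and 2.55 FPKM in WT replicates 1, 2 and 3. Every GBetaKO library was more than 2-fold above every WT library, although the gene was weakly expressed in both genotypes. The means were 6.20 ± 0.689 FPKM in GBetaKO and 1.86 ± 0.604 FPKM in WT (SD, n = 3 each), a ratio of 3.33. On the log2(FPKM + 1) scale, which understates changes of weak genes, the log2 fold change was 1.35 ± 0.21 (SE, limma adjusted p = 0.0045), and it was 1.72 with a pseudocount of 0.1 and 0.71 with a pseudocount of 5. The values rest on 262 to 279 reads per GBetaKO library and 54 to 85 reads per WT library.

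The departures of single libraries were shared by some of the genes. By FPKM, GBetaKO replicate 2 was the highest GBetaKO library for both nitrate reductases, Zm00001d033747, Zm00001d048050, Zm00001d028260, Zm00001d051804 and asn4. It was the lowest for the plastid glutamine synthetase. In TPM 2 of these genes changed place. Zm00001d051804 was then lowest in GBetaKO replicate 2, with 339.8 against 369.7 and 382.2 in GBetaKO replicates 1 and 3. asn4 was then highest in GBetaKO replicate 3. The distance of GBetaKO replicate 2 from the other GBetaKO libraries on the log2(FPKM + 1) scale was 2.31 for Zm00001d049995 and 0.65 for Zm00001d033747. By FPKM, WT replicate 3 was the highest WT library for 7 of the 9 genes and the lowest for Zm00001d028260 and Zm00001d018206. Its summed FPKM over all genes was also the highest, 857831 against 662881 and 597454 in WT replicates 1 and 2. In TPM the plastid glutamine synthetase was no longer highest there, with 99.6 against 102 in WT replicate 2. Among WT libraries the highest FPKM was 1.47 to 2.16 times the lowest for the 8 tested genes. The part of these libraries' other differences in the values of the 9 genes was not tested.

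**Figure D4:**
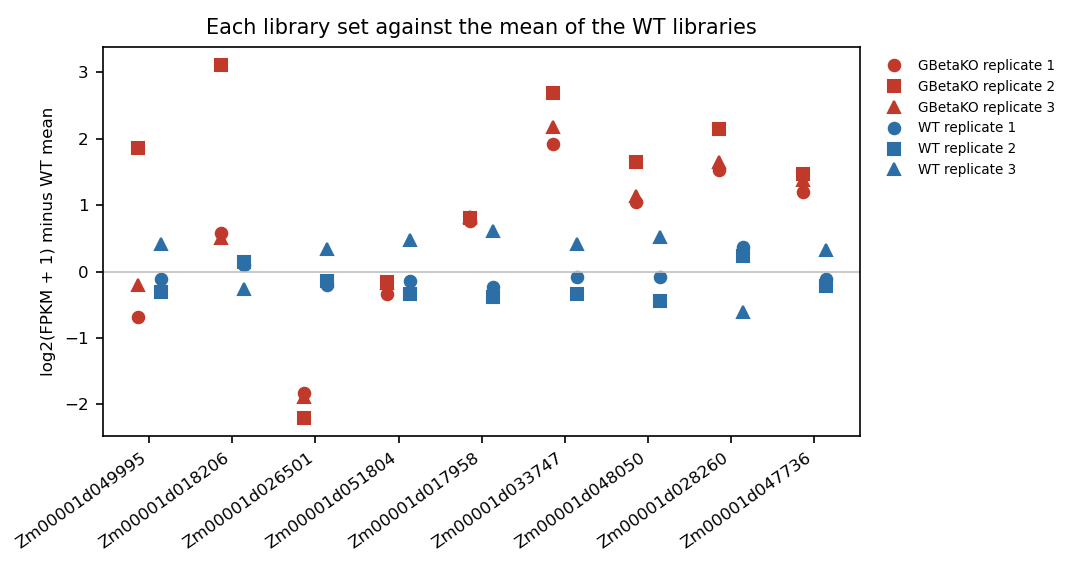
Log2(FPKM + 1) of each gene in each library minus the mean of the 3 WT libraries (vertical axis). Colours give the genotype (GBetaKO red, WT blue) and marker shapes the replicate. The squares of GBetaKO replicate 2 stand apart for the 2 nitrate reductases, while all GBetaKO libraries lie together at about -2 for the plastid glutamine synthetase.

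Genes of similar pattern were sought by Pearson's r of log2(FPKM + 1) over the 6 libraries, among 11397 other tested genes with a mean of at least 10 FPKM. For the nitrate reductase Zm00001d049995 the closest was Zm00001d042349 (r = 0.996), with 15.6, 38.6 and 17.2 FPKM in GBetaKO replicates 1, 2 and 3, against 19.2, 17.1 and 22.1 FPKM in WT replicates 1, 2 and 3. Like the nitrate reductase, it was high in GBetaKO replicate 2. For Zm00001d051804 the closest was Zm00001d023950 (r = 0.998). It had 107 FPKM in WT replicate 3 and 6.02 to 12.9 FPKM in the other libraries, so this r rests largely on 1 library. For asn4 the closest was Zm00001d016760 (r = 0.9999), which was higher in every GBetaKO library. An r above 0.95 was reached by 66 genes for the nitrate reductase, 121 for Zm00001d051804 and 714 for asn4, and all these values share the same 6 libraries in 2 genotypes. The 3 identifiers are not named by the sources used here.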

How the data were processed

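RNA of 6 libraries of maize seedling shoots, 3 GBetaKO and 3 WT, was isolated with a column kit for plants and read as paired ends, as the labels' protocols and the design text state. Per the submitters' processing notes, TopHat2, Cufflinks and Cuffdiff and the build B73 RefGen_v4 were used. Their versions, the annotation and the strandedness are not given here. The authors deposited 1 table of FPKM per library, with no header, so the unit was read from the tools and the values. Groups and replicate numbers came from the titles.

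Whole reads were worked back from the FPKM as whole multiples of a step per gene (within about 0.01 of a read). They were found for all 31946 genes above 0. In a simulation 98.8% of 2803 genes with a mean of at least 20 reads were recovered exactly. Reads come out too low for a gene if its length and counts have a common divisor. The reads give the depth of a value and feed an alternative fit.

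GBetaKO was compared with WT by limma 3.58.1 in R 4.3.3 on log2(FPKM + 1), using a robust mean-variance trend, two-sided tests and Benjamini-Hochberg adjustment over 23232 genes, and the limma script was tested on simulated data. The authors' scaling between libraries was kept. Python 3.11.15, numpy 2.4.6, pandas 2.3.3, scipy 1.17.1 and matplotlib 3.10.9 were used. The 9 genes, the settings and the rule for similar genes were chosen with earlier results of these data known. The rule named all 9 genes and, for the strongest nitrate reductase, the strongest glutamine synthetase and asn4, the gene of highest r. The planned lists of pathway genes and markers were left out because the identifiers carry no names here, and positions and sequences of the genes were not used. Alternatives covered the pseudocount, filter, scaling, variance model, library weights, a replicate block, libraries left out and voom on the reads.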

Additional observations from a re-analysis of the deposited data

How the results depend on the processing

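The number of the 9 genes called, 5, ranged from 4 to 6 over all 18 alternatives. The calls of Zm00001d026501, Zm00001d033747, Zm00001d028260 and asn4 held wherever they were tested (highest adjusted p 0.030; asn4 has a mean under 5 FPKM and was left out by that filter). For asn4 the log2 fold change ranged from 0.71 to 1.79. Zm00001d048050 lost its call in 5 alternatives, and Zm00001d017958 gained one in 5. The log2 fold change of Zm00001d049995 turned to -0.068 with library weights, -0.45 without GBetaKO replicate 2 and -0.24 without both GBetaKO replicate 2 and WT replicate 3, and lay between -0.45 and 0.83 with each library left out. That of Zm00001d051804 turned to 0.036 at equal summed FPKM, 0.14 after quantile normalization and 0.015 without WT replicate 3, and lay between -0.39 and 0.015 with each library left out. Over all genes, 7238 calls became 4579 with a replicate block, 14976 with library weights, 11952 without the 2 libraries that stood apart, and 4212 to 8614 with each library left out. Same-numbered libraries departed from their group means with correlations of 0.15, -0.37 and -0.20, and differently numbered ones with -0.37 to 0.47. With 3 libraries per genotype these values cannot show whether the numbers pair the libraries. With the replicate block Zm00001d048050 had an adjusted p of 0.062. The difference in the plastid share, -12.3 percentage points, was -12.9 to -11.4 with each library left out, -29.1 counted in reads and -30.6 without Zm00001d051804, since both of these enlarge the share of the plastid gene by construction. The cause of the other changes was not tested. Depth was lowest for Zm00001d018206, with at most 10 reads per WT library.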
